A study of Mus musculus with 10 samples.

Results

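Interleukin 7 (IL-7) signals to the nucleus of lymphoid progenitors through JAK kinases and STAT transcription factors, and SOCS proteins restrain that signal. The 10 genes described here were listed by symbol, and the list was made with earlier results of these data known. They are the kinase genes Jak1, Jak2 and Jak3, the transcription factor genes Stat3, Stat5a and Stat5b, and the inhibitor genes Socs1, Socs2, Socs3 and Cish. All 10 were measured, among 23152 genes in the deposited table. The study sorted progenitors from the bone marrow of adult C57BL/6 mice and profiled their total RNA on 10 Affymetrix arrays. CD127 is the IL-7 receptor α chain, made from Il7r, and it divided the lymphoid-primed multipotent progenitors (LMPPs) into CD127+ LMPPs on 3 arrays and CD127− LMPPs on 3 arrays. Both LMPP groups were negative for lineage markers and had high cKit, Sca-1 and Flt3. The common lymphoid progenitors (CLPs) were also lineage negative and high in Flt3, but had little cKit and Sca-1 and were all CD127+. They came as Ly6D+ CLPs on 2 arrays and Ly6D− CLPs on 2 arrays. No group was treated or carried a named mutation, and the labels do not say whether the replicates of a group came from separate mice, pooled mice or separate sorts, so that a p-value here reflects no more than the scatter among these arrays, which may be technical.

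The IL-7 receptor pairs the CD127 chain with the common γ chain, the product of Il2rg. When IL-7 binds, JAK1 on CD127 and JAK3 on the γ chain phosphorylate STAT5A and STAT5B, which enter the nucleus as dimers and bind palindromic sites near their target genes. Cish, Socs1, Socs2 and Socs3 are known targets of STAT proteins, and their products dampen cytokine receptor signalling in a feedback loop. In the mouse, loss of IL-7, of CD127, of the γ chain or of JAK3 leaves the marrow with few B cell precursors.

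The consensus STAT5 site reads TTCNNNGAA, the same on both strands. Promoter windows of 250 bases before to 50 bases after a start site of a gene were found in RefSeq (build GRCm38.p6) for 9 of the 10 genes, in 11 windows, since Stat5a and Stat5b have more than 1. Socs2 had no window and was not searched, so its lack of a listed site says nothing about its promoter. The site was present in 2 of these windows, those of Cish and Socs3, and their surrounding sequences are shown for that reason. Both genes were among those higher in CD127+ LMPPs, and a link between the site and their levels was not tested. The Cish stretch is chr9:107296633-107296686 on the plus strand, from base −26 to base 28 relative to the gene's start. The Socs3 stretch is chr11:117969486-117969546 on the minus strand, from base −180 to base −120. These Socs3 positions count from the start site of its window, which lies inside the RefSeq gene, chr11:117966079-117970336, and not at its outer end. Capitals mark the matches to the site.
Cish: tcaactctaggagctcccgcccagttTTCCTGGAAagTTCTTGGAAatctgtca
Socs3: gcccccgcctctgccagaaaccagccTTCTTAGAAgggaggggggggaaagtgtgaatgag
The Cish window held 2 matches, TTCCTGGAA at the start and TTCTTGGAA 11 bases further on, which do not overlap. The Socs3 window held 1, TTCTTAGAA, which began at base −154. Of all 32851 windows in the table, 2726 (8.3%) held at least 1 match and 150 (0.457%) held 2 or more. These matches describe the letters of the reference sequence, and binding was not measured.

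The values are log2 signals. Each gene's value is the mean over its probe sets, the short stretches of a gene that the array measures separately, and the 10 genes had 165 of them. Levels are compared between groups for 1 gene at a time and never between genes. A low-signal limit of 4.43 was taken as the 95th percentile of 1419 odorant, pheromone and taste receptor genes, which serve the sense organs. Arrays of the same group correlated at Pearson r of 0.972 to 0.986 over genes and arrays of different groups at 0.955 to 0.981. Il7r and Ly6d followed the labels. Il7r averaged 9.10 ± 0.05 in CD127+ LMPPs and 4.32 ± 0.44 in CD127− LMPPs (SD, n = 3 each), and Ly6d averaged 11.33 ± 0.04 in Ly6D+ CLPs and 5.88 ± 0.41 in Ly6D− CLPs (SD, n = 2 each). Ly6d was also at 8.67 ± 0.14 in CD127+ LMPPs, against 4.76 ± 0.15 in CD127− LMPPs (SD, n = 3 each). Kit, which codes for cKit, was lower in CLPs than in CD127+ LMPPs (−0.99, limma adjusted p = 0.00146) and than in CD127− LMPPs (−1.36, limma adjusted p = 5.63e-05). The transcript of Ly6a, which codes for Sca-1, did not separate CLPs from CD127− LMPPs as the labels' Sca-1 does, with means of 5.90 in CLPs and 5.82 in CD127− LMPPs, overlapping arrays and a difference of 0.087 (95% confidence interval −0.60 to 0.78, limma adjusted p = 0.896). Its mean in CD127+ LMPPs was 7.02, and CLPs differed from these by −1.12 (limma adjusted p = 0.0613).

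Transcripts of other marrow cells also differed between the LMPP groups. Of 11 mature granulocyte genes, 6 were higher in CD127+ LMPPs, among them Camp, which encodes the granule peptide cathelicidin (log2 difference 3.63, SE 0.37, limma adjusted p = 0.00065). In that comparison 1.47% of all genes were called and 0.881% were called higher. The mean of the whole list was 6.34 to 7.07 on the CD127+ LMPP arrays, against 4.63 to 5.61 on the CD127− LMPP arrays, and it was 4.81 to 5.33 on the Ly6D+ CLP and 4.90 to 5.06 on the Ly6D− CLP arrays. The gelatinase gene Mmp9 was under the low-signal limit in all 4 groups. Mmp8 and Cxcr2 of the same list had lower means in CD127+ than in CD127− LMPPs, without passing the test. The means were 4.59 against 5.22 for Mmp8 and 5.09 against 5.61 for Cxcr2. Of 8 measured erythroid genes, 3 were higher in CD127+ LMPPs, and the list mean was 5.47 to 6.12 on CD127+ LMPP arrays, against 4.74 to 4.86 on CD127− LMPP arrays. Most macrophage and monocyte genes went the other way, with 3 of 6 lower in CD127+ LMPPs and a list mean of 5.65 to 5.91, against 6.23 to 6.59 in CD127− LMPPs. Lyz2 (8.10 against 7.59) and Vcam1 (4.02 against 3.58, under the low-signal limit) had higher means in CD127+ than in CD127− LMPPs, and neither passed. All 6 measured genes of mature T and NK cells, such as Cd3e, were under the limit in every group. Of 5 measured genes of mature B and plasma cells, Ms4a1, Fcer2a and Cr2 were under it in every group. Cd22 was above it only in Ly6D+ CLPs (mean 4.61). Sdc1 was above it in all 4 groups, with means of 5.72 in CD127− LMPPs to 6.26 in Ly6D− CLPs. In sorted bulk samples, fewer cells of a type and less RNA per cell cannot be told apart.

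The inhibitor genes Cish, Socs2 and Socs3, and none of the kinase or STAT genes, passed the test between CD127+ and CD127− LMPPs. All 3 were higher in CD127+ LMPPs, and 0 of the 10 genes were lower, in a comparison in which 1.47% of all genes were called and 0.881% were called higher. CLPs, taken as the equal mean of their 2 groups, had more Stat3 than CD127+ LMPPs, which was the single call of that comparison, where 6.18% of all genes were called and 2.23% were higher. Against CD127− LMPPs, CLPs had more Cish, Socs2, Jak1 and Stat3, where 5.08% of all genes were higher, and less Stat5b, where 8.36% were lower, in all 5 of 10 against 13.4% of all genes. Between Ly6D+ and Ly6D− CLPs, limma called 0 of the 10 genes and 0.0993% of all genes, with Stat5b and Socs1, 2 of the 10, at an unadjusted p under 0.05. These comparisons share arrays, CD127+ LMPPs in the first and the second, CD127− LMPPs in the first and the third, and the CLPs in the last 3. The LMPP and the CLP samples were numbered in separate blocks at deposit, and whether they were processed together is not known here. Between CLPs and LMPPs, cell type and any such batch therefore cannot be told apart. All adjusted p-values are from limma with the Benjamini-Hochberg correction across the 23152 genes, and a gene was called when its adjusted p was under 0.05. The share of all genes at an unadjusted p under 0.05 is not given, so counts at that p, here and below, have no background beside them.

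**Figure D1:**
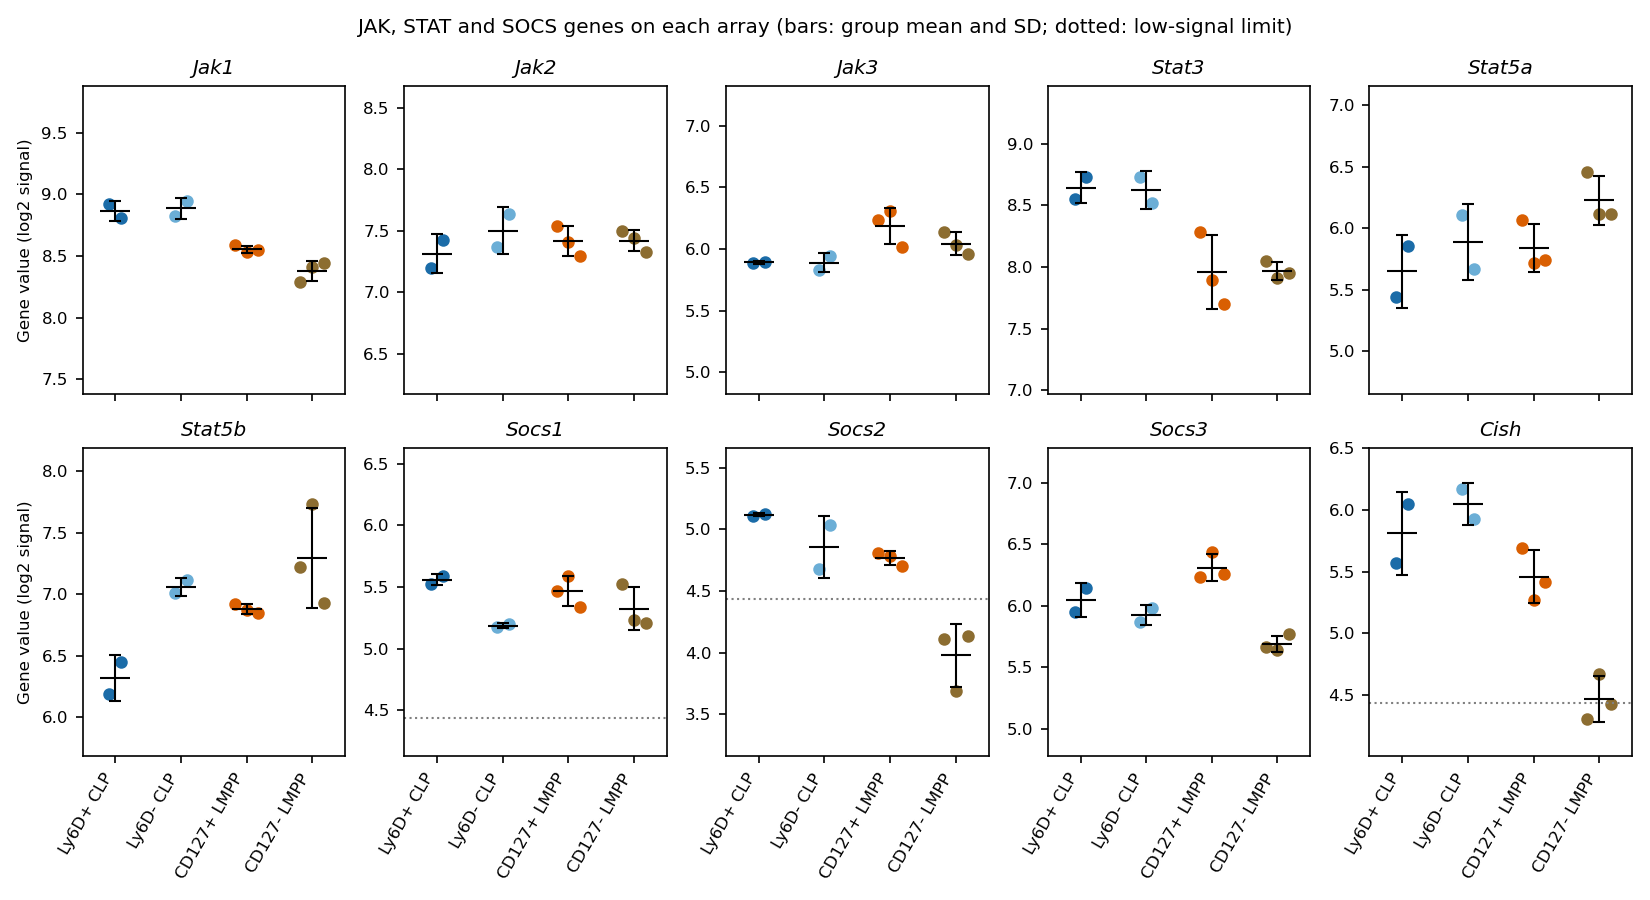
Log2 signal of each of the 10 genes on every array, with points for arrays, horizontal bars for group means and error bars for the SD (n = 2 for each CLP group, n = 3 for each LMPP group). The vertical axes span the same number of log2 units in each panel and start at different values, and the dotted line is the low-signal limit of 4.43. Cish and Socs2 sit lowest in CD127− LMPPs, Socs3 is highest in CD127+ LMPPs, and Stat3 is higher on all 4 CLP arrays than on all 6 LMPP arrays.

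Jak1, the kinase that sits on CD127, was the one kinase gene to pass a test. Its log2 signal was 8.92 and 8.81 in Ly6D+ CLPs, 8.83 and 8.95 in Ly6D− CLPs, 8.59, 8.53 and 8.55 in CD127+ LMPPs, and 8.29, 8.41 and 8.44 in CD127− LMPPs. The 4 CLP arrays were above all 6 LMPP arrays, and the 3 CD127+ LMPP arrays were above the 3 CD127− LMPP arrays. CLPs exceeded CD127− LMPPs by 0.50 on the log2 scale (SE 0.11, 1.41-fold, adjusted p = 0.0149). The same gene differed by 0.32 between CLPs and CD127+ LMPPs (95% confidence interval 0.07 to 0.57, adjusted p = 0.127) and by 0.18 between CD127+ and CD127− LMPPs (−0.09 to 0.44, adjusted p = 0.653), and neither passed. In the order of the group means, Ly6D− CLPs, Ly6D+ CLPs, CD127+ LMPPs and CD127− LMPPs, no neighbours differed past the threshold. The call against CD127− LMPPs was lost without CD127− LMPP replicate 1 (adjusted p = 0.0704) or Ly6D+ CLP replicate 1 (adjusted p = 0.0533). It was also lost on the single brightest of Jak1's probe sets, where the difference was 0.027 (adjusted p = 0.935).

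Jak3, the kinase bound to the common γ chain, had its highest mean in CD127+ LMPPs. Its arrays read 5.88 and 5.90 in Ly6D+ CLPs, 5.83 and 5.94 in Ly6D− CLPs, 6.23, 6.31 and 6.02 in CD127+ LMPPs, and 6.14, 6.03 and 5.96 in CD127− LMPPs. The CLP arrays were below the arrays of both LMPP groups, whose ranges overlapped each other. The differences were −0.30 for CLPs against CD127+ LMPPs (95% confidence interval −0.56 to −0.03, adjusted p = 0.189) and −0.15 against CD127− LMPPs (−0.42 to 0.11, adjusted p = 0.47). A further 2 probe sets shared with the neighbouring hormone gene Insl3 stayed out of the Jak3 value. Jak2 is the kinase of receptors for erythropoietin, thrombopoietin and growth hormone and is not part of the IL-7 receptor. Its group means lay between 7.31 and 7.50, with all groups overlapping, and its difference between CD127+ and CD127− LMPPs was −0.0055 (95% confidence interval −0.31 to 0.30).

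Stat3, which mediates signals of the IL-6 family and other cytokines, separated CLPs from both LMPP groups. Its log2 signal was 8.55 and 8.73 in Ly6D+ CLPs, 8.73 and 8.52 in Ly6D− CLPs, 8.28, 7.89 and 7.70 in CD127+ LMPPs, and 8.05, 7.91 and 7.95 in CD127− LMPPs. Every CLP array was above every LMPP array, and the CD127− LMPP values lay inside the range of the CD127+ LMPPs. CLPs exceeded CD127+ LMPPs by 0.68 (SE 0.15, 1.60-fold, adjusted p = 0.028) and CD127− LMPPs by 0.67 (SE 0.15, 1.59-fold, adjusted p = 0.0156). Between CD127+ and CD127− LMPPs the difference was −0.011 (95% confidence interval −0.37 to 0.35), and between Ly6D+ and Ly6D− CLPs it was 0.019 (−0.42 to 0.46). The call against CD127+ LMPPs was lost without CD127+ LMPP replicate 2 (adjusted p = 0.103), CD127+ LMPP replicate 3 (0.105), Ly6D− CLP replicate 1 (0.068), Ly6D+ CLP replicate 1 (0.0585) or Ly6D+ CLP replicate 2 (0.0846). The call against CD127− LMPPs was lost without CD127− LMPP replicate 2 (adjusted p = 0.0557) or Ly6D+ CLP replicate 2 (0.0525), and neither was seen on the brightest probe set alone, with differences of 0.092 and 0.17.

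Stat5b, one of the pair of STATs that carry the IL-7 signal, was lower in CLPs than in CD127− LMPPs. It was at 6.19 and 6.45 in Ly6D+ CLPs, 7.01 and 7.11 in Ly6D− CLPs, 6.92, 6.87 and 6.84 in CD127+ LMPPs, and 7.22, 7.73 and 6.93 in CD127− LMPPs. The Ly6D+ CLP arrays were below all others, whereas the Ly6D− CLP arrays overlapped with the CD127− LMPPs, and the CD127− LMPPs were the most spread group (SD 0.41, n = 3). The difference was −0.60 (SE 0.18, 1.52-fold lower, adjusted p = 0.0458). It was −0.97 for Ly6D+ CLPs alone (adjusted p = 0.0139) and −0.23 for Ly6D− CLPs alone (adjusted p = 0.579). Ly6D+ CLPs differed from Ly6D− CLPs by −0.74 (95% confidence interval −1.25 to −0.23), which did not pass (adjusted p = 0.359), and CD127+ LMPPs from CD127− LMPPs by −0.41 (−0.83 to 0.0024, adjusted p = 0.453). With 1 array left out the CLP call remained past the threshold only without CD127− LMPP replicate 3 (adjusted p = 0.0185). Without the high CD127− LMPP replicate 2 the difference was −0.38 (adjusted p = 0.147), and without any of the other 8 arrays the adjusted p was 0.0639 to 0.13. In all, 17 of 23 alternatives ended the call, among them median centring of the arrays (−0.58, adjusted p = 0.0555), array weights (−0.54, adjusted p = 0.0567) and a fit of the compared arrays alone (−0.60, adjusted p = 0.0926). The call was also lost with the median of the probe sets (−0.49, adjusted p = 0.226), with the brightest one (−0.12, adjusted p = 0.753) and, in an alternative chosen after seeing the data, without the most different one (−0.48, adjusted p = 0.0825).

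Stat5a, the other carrier of the signal, had the same order of LMPP groups but passed no test. It was at 5.44 and 5.86 in Ly6D+ CLPs, 6.10 and 5.67 in Ly6D− CLPs, 6.07, 5.71 and 5.74 in CD127+ LMPPs, and 6.45, 6.11 and 6.11 in CD127− LMPPs. The CD127− LMPP arrays were above all 7 others. CLPs differed from CD127− LMPPs by −0.46 (95% confidence interval −0.83 to −0.08, adjusted p = 0.108) and CD127+ LMPPs differed from them by −0.38 (−0.79 to 0.017, adjusted p = 0.474). When the gene was averaged over its brighter probe sets alone, a choice made after seeing the data, the CLP difference was −0.54 and passed (adjusted p = 0.0204). Stat5b, Stat5a and Stat3 lie in that order next to each other on chromosome 11, with no other gene starting between them in the RefSeq table, and the products of Stat5a and Stat5b are closely related. Whether any of their probes detect both transcripts was not tested.

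Cish, the SOCS family member that competes with STAT5 at activated receptors, had the largest differences of the 10 genes between CLPs and CD127− LMPPs and between CD127+ and CD127− LMPPs. Its log2 signal was 5.57 and 6.05 in Ly6D+ CLPs, 6.17 and 5.93 in Ly6D− CLPs, 5.69, 5.27 and 5.41 in CD127+ LMPPs, and 4.30, 4.67 and 4.43 in CD127− LMPPs. All 7 arrays of CD127+ populations were above all 3 CD127− LMPP arrays, of which 2 were under the low-signal limit. CD127+ LMPPs exceeded CD127− LMPPs by 0.99 (SE 0.18, 1.99-fold, adjusted p = 0.0184), and CLPs exceeded CD127− LMPPs by 1.47 (SE 0.17, 2.76-fold, adjusted p = 0.000299). CLPs differed from CD127+ LMPPs by 0.47 (95% confidence interval 0.11 to 0.84, adjusted p = 0.125), with overlapping arrays. In the order Ly6D− CLPs, Ly6D+ CLPs, CD127+ LMPPs and CD127− LMPPs, the last step was the one that passed. The LMPP call was lost without CD127− LMPP replicate 1 (adjusted p = 0.0942), CD127− LMPP replicate 3 (0.0615), CD127+ LMPP replicate 1 (0.0874) or CD127+ LMPP replicate 3 (0.0774), while the CLP call held with each of the 10 arrays left out, at an adjusted p of 0.00267 or below. On the brightest Cish probe set alone the differences were 0.56 (adjusted p = 0.521) and 0.32 (adjusted p = 0.35). Without the most different Cish probe set, an alternative chosen after seeing the data, the LMPP difference was 0.90 and missed the threshold (adjusted p = 0.051).

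Socs2, an inhibitor best known from growth hormone signalling, followed the same order of LMPPs and CLPs. It was at 5.11 and 5.13 in Ly6D+ CLPs, 4.68 and 5.03 in Ly6D− CLPs, 4.81, 4.78 and 4.70 in CD127+ LMPPs, and 4.11, 3.69 and 4.14 in CD127− LMPPs. All 3 CD127− LMPP arrays were under the low-signal limit and all 7 others were above it, so the folds are lower bounds, set against the limit. Socs2 was at least 1.26-fold higher in CD127+ LMPPs than in CD127− LMPPs (fitted log2 difference 0.79, SE 0.16, adjusted p = 0.0333) and at least 1.47-fold higher in CLPs than in CD127− LMPPs (1.01, SE 0.15, adjusted p = 0.00128). CLPs and CD127+ LMPPs differed by 0.22 (95% confidence interval −0.10 to 0.55, adjusted p = 0.435). The LMPP call was lost without any 1 of the 6 LMPP arrays (adjusted p = 0.0508 to 0.13) and without either Ly6D+ CLP array (0.0585). The CLP call held with each of the 10 arrays left out, at an adjusted p of 0.00609 or below. With the median of the probe sets in place of their mean, both calls were lost, at 0.55 between the LMPP groups (adjusted p = 0.596) and 0.65 between CLPs and CD127− LMPPs (adjusted p = 0.175).

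Of the 17 probe sets of Socs2, 1 differed far more than the others. This probe set, the brightest of the gene, read 10.50 and 10.41 in Ly6D+ CLPs, 9.61 and 10.28 in Ly6D− CLPs, 9.42, 9.56 and 9.58 in CD127+ LMPPs, and 4.65, 5.73 and 5.45 in CD127− LMPPs. Its lowest value in a CD127+ population was 9.42 and its highest in CD127− LMPPs 5.73, with a difference of 4.24 between the LMPP groups and 4.92 between CLPs and CD127− LMPPs. Without it, a choice made after seeing the data, the LMPP difference was 0.57 (adjusted p = 0.164) and the difference between CLPs and CD127− LMPPs was 0.77 (adjusted p = 0.00785). The remaining mean still held the next most different probe set, at 2.63 between the LMPP groups and 2.66 between CLPs and CD127− LMPPs. Of the 17 probe sets, 14 were higher in CD127+ LMPPs than in CD127− LMPPs, and 9 were above the probe set limit of 4.92 in some group, of which 8 were higher.

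Socs3, which blocks signalling through the IL-6 and G-CSF receptors, was the one inhibitor gene highest in CD127+ LMPPs. Its log2 signal was 5.95 and 6.14 in Ly6D+ CLPs, 5.87 and 5.98 in Ly6D− CLPs, 6.23, 6.43 and 6.26 in CD127+ LMPPs, and 5.66, 5.64 and 5.77 in CD127− LMPPs. The CD127+ LMPP arrays were above all others and the CD127− LMPP arrays below all others. CD127+ LMPPs exceeded CD127− LMPPs by 0.62 (SE 0.13, 1.53-fold, adjusted p = 0.0401), and each of its 7 probe sets was higher. CLPs differed from CD127+ LMPPs by −0.32 (95% confidence interval −0.59 to −0.06, adjusted p = 0.145) and from CD127− LMPPs by 0.29 (0.03 to 0.56, adjusted p = 0.141). Against CD127+ LMPPs, 5 of the 7 probe sets were lower in CLPs and 2 were higher, and the brightest differed by −0.11. The call was lost without any 1 of the 10 arrays, CLP arrays included (adjusted p = 0.0505 to 0.175), while the difference stayed at 0.56 to 0.66. Without its most different probe set, again chosen after seeing the data, the difference was 0.55 (adjusted p = 0.104), so that by limma none of Cish, Socs2 and Socs3 passed between the LMPP groups without its own most different probe set. The granulocyte and erythroid lists above were highest in the same CD127+ LMPP arrays, and their part in the Socs3, Socs2 and Cish differences was not tested.

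Socs1, an inhibitor that binds JAKs directly and restrains γ chain cytokines in T cells, passed no test on its 2 probe sets. It was at 5.53 and 5.59 in Ly6D+ CLPs, 5.17 and 5.20 in Ly6D− CLPs, 5.47, 5.59 and 5.34 in CD127+ LMPPs, and 5.52, 5.23 and 5.21 in CD127− LMPPs. The Ly6D+ CLP arrays were above the Ly6D− CLP arrays, and the LMPP groups overlapped. Ly6D+ CLPs differed from Ly6D− CLPs by 0.37 (95% confidence interval 0.0050 to 0.74, adjusted p = 0.541), and CD127+ LMPPs differed from CD127− LMPPs by 0.14 (−0.16 to 0.44, adjusted p = 0.768).

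**Figure D2:**
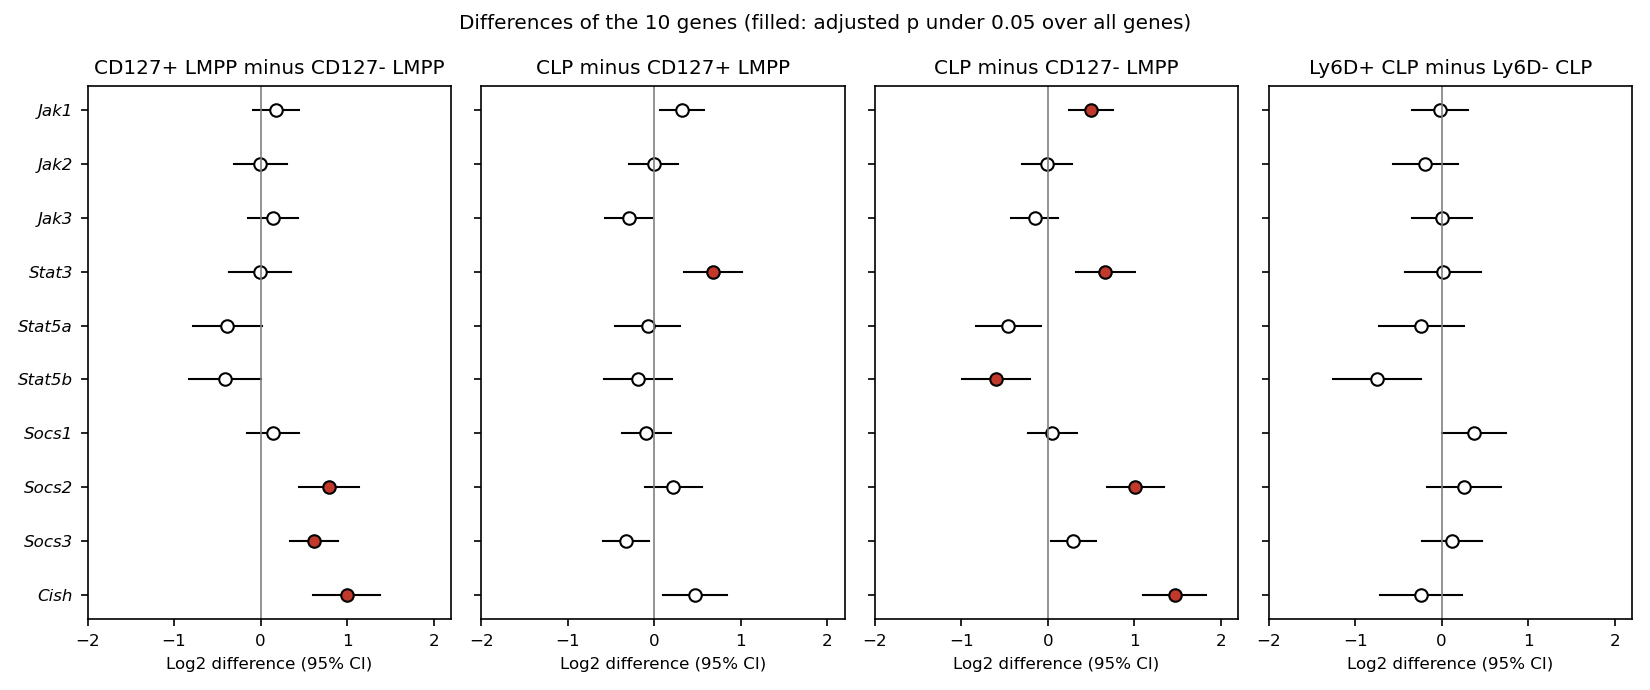
Log2 differences of the 10 genes in the 4 comparisons, with points for the limma estimates, lines for their 95% confidence intervals and filled points for an adjusted p under 0.05 over all genes. The filled points are Cish, Socs2 and Socs3 in the first panel, Stat3 in the second, Cish, Socs2, Jak1, Stat3 and Stat5b in the third, and none in the fourth.

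The 2 CLP groups were also set against the LMPPs separately. Against CD127− LMPPs, 5 of 10 genes were called in Ly6D+ CLPs, where 10.9% of all genes were: Jak1, Stat3, Socs2 and Cish were higher and Stat5b was lower. In Ly6D− CLPs Jak1, Socs2 and Cish were higher, 3 of 10 genes where 7.1% of all genes were called. The Cish difference from CD127− LMPPs was 1.35 for Ly6D+ CLPs (adjusted p = 0.0018). For Ly6D− CLPs it was 1.58 (adjusted p = 0.0013). Against CD127+ LMPPs, limma called 0 of 10 genes in Ly6D+ CLPs, where 4.03% of all genes were called, and 0 of 10 in Ly6D− CLPs, where 2.06% were, with 3 and 4 of the 10 at an unadjusted p under 0.05. Over the 10 genes, the median log2 difference was 0.14 between CD127+ and CD127− LMPPs, beside −0.0051 over all genes. It was −0.041 between CLPs and CD127+ LMPPs, beside −0.00080 over all genes, and 0.17 between CLPs and CD127− LMPPs, beside 0.016.

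Most single probe sets of the called genes differed in the direction of the gene's mean. Cish had 12 of 13 probe sets higher in CD127+ LMPPs than in CD127− LMPPs, and 12 of 13 higher in CLPs than in CD127− LMPPs. Stat3 had 21 of 25 higher in CLPs than in CD127+ LMPPs, and Jak1 had 27 of 31 higher in CLPs than in CD127− LMPPs. All 11 probe sets of Stat5b were lower in CLPs than in CD127− LMPPs, with differences of −1.81 to −0.12. The probe set at −1.81 was under the probe set limit of 4.92 in every group, and the 10 above it in some group were all lower. Probe sets of a gene share its transcripts and arrays and are not replicates of a group. The most different Cish probe set was at 7.65 and 7.29 in Ly6D+ CLPs, 7.83 and 8.59 in Ly6D− CLPs, 6.78, 6.36 and 6.39 in CD127+ LMPPs, and 4.45, 3.71 and 4.84 in CD127− LMPPs, without overlap between CLPs, CD127+ LMPPs and CD127− LMPPs.

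**Figure D3:**
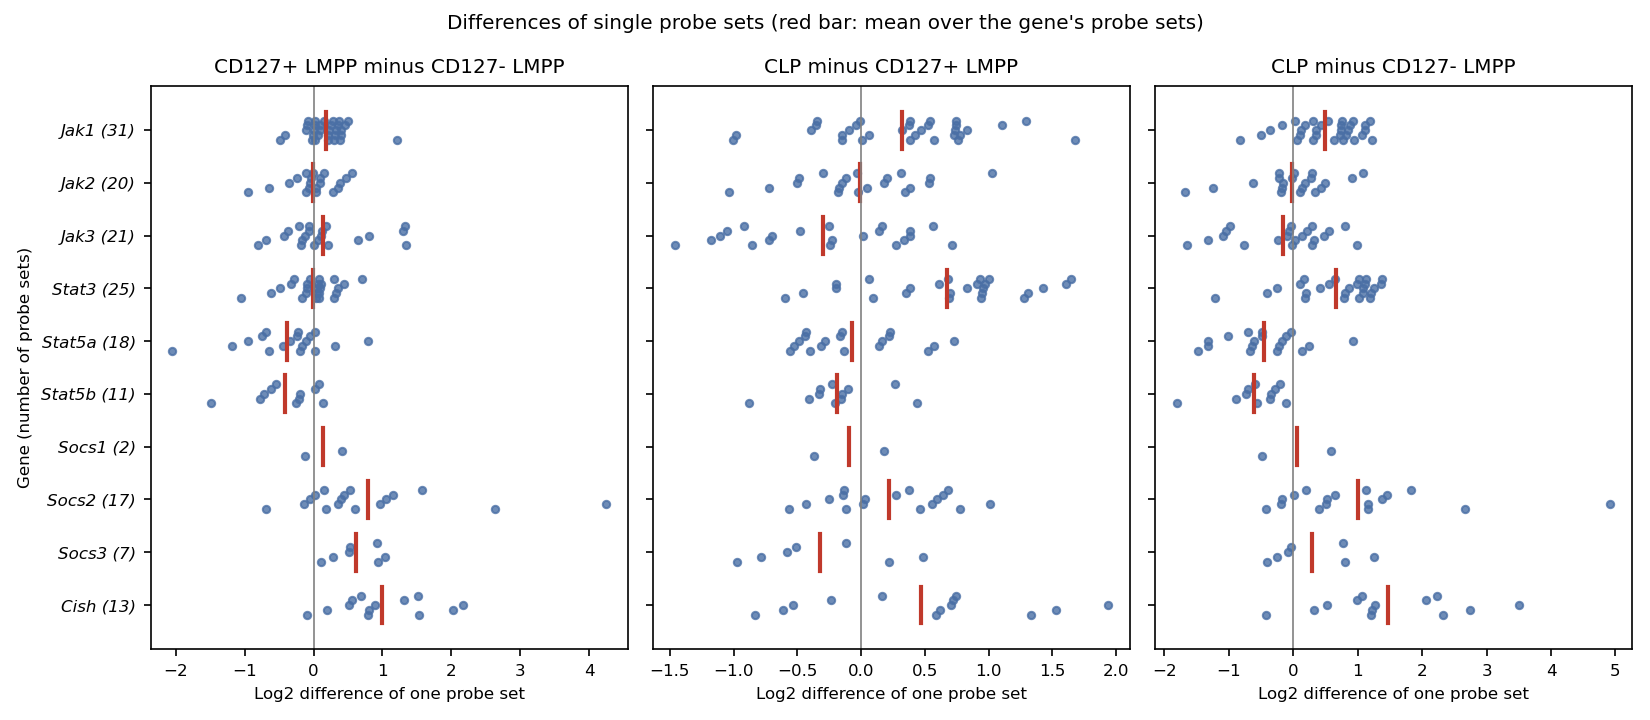
Log2 difference of each single probe set of the 10 genes in 3 comparisons, with the number of probe sets beside each gene's name and a red bar at the mean over them. The horizontal axes differ between panels. The Socs2 probe set at 4.24 in the first panel and 4.92 in the third stands apart from the other 16, while the 11 probe sets of Stat5b in the third panel all lie below 0.

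The other genes of the pathway were described in 5 lists. Of 9 genes for receptors that use JAK1, JAK3 or both, 3 were higher in CD127+ than in CD127− LMPPs, 1 was higher in CLPs than in CD127+ LMPPs, and 5 passed between CLPs and CD127− LMPPs, 4 of them higher in CLPs and 1 lower. In these comparisons 1.47%, 6.18% and 13.4% of all genes were called, for this list and those below. The counts of 3 and 5 include Il7r, which codes for the CD127 used in the sort, so its calls follow from the sort. Il7r differed by 4.77 between CD127+ and CD127− LMPPs. Il2rg, for the common γ chain, averaged 9.63 ± 0.07 in Ly6D+ CLPs and 9.38 ± 0.05 in Ly6D− CLPs (SD, n = 2 each), 8.88 ± 0.22 in CD127+ LMPPs and 8.12 ± 0.07 in CD127− LMPPs (SD, n = 3 each). It exceeded CD127− LMPPs by 0.75 in CD127+ LMPPs (SE 0.14, adjusted p = 0.0245) and by 1.38 in CLPs (SE 0.13, adjusted p = 0.000105), and CLPs exceeded CD127+ LMPPs by 0.63 (SE 0.13, adjusted p = 0.0208). Il2rb, the β chain for IL-2 and IL-15, was called between the LMPP groups with all its LMPP arrays under the low-signal limit. Il21r was higher in CLPs than in CD127− LMPPs (0.98, SE 0.16, adjusted p = 0.00215) and Il15ra was lower (−0.78, SE 0.15, adjusted p = 0.00654).

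Of 8 other JAK, STAT and SOCS genes measured, Socs7 was the one call, higher in CLPs than in CD127+ LMPPs (0.68, SE 0.15, adjusted p = 0.0221) and than in CD127− LMPPs (0.63, adjusted p = 0.016), and none passed between the LMPP groups by limma, with 1 at an unadjusted p under 0.05. That gene was Tyk2, the remaining JAK, which is named after its value was seen and differed by −0.38 between CD127+ and CD127− LMPPs (adjusted p = 0.313). Of 14 other inhibitors of the pathway, the phosphatase gene Ptprc, which codes for CD45, and the ubiquitin ligase gene Cblb were higher in CLPs than in CD127+ LMPPs, by 0.46 and 0.47, and than in CD127− LMPPs, by 0.68 and 0.42. None of the 14 passed between the LMPP groups by limma, with 1, the MAP kinase phosphatase gene Dusp4, at an unadjusted p under 0.05 (0.46, adjusted p = 0.346).

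Of 14 genes known as STAT5 targets or as survival genes downstream of IL-7, 1 was lower in CD127+ LMPPs than in CD127− LMPPs and 1 was higher in CLPs than in CD127+ LMPPs. Between CLPs and CD127− LMPPs, 1 was higher and 1 was lower. In these comparisons 1.47%, 6.18% and 13.4% of all genes were called. At an unadjusted p under 0.05 were 6, 4 and 6 of the 14, a looser threshold to which those shares do not apply. Id1, which codes for an inhibitor of E proteins, was lower in CD127+ LMPPs than in CD127− LMPPs (−0.71, SE 0.15, adjusted p = 0.0447), and CLPs also had less of it than CD127− LMPPs (−0.99, SE 0.14, adjusted p = 0.00115). The Id1 mean was under the low-signal limit in CD127+ LMPPs (4.42), Ly6D+ CLPs (4.17) and Ly6D− CLPs (4.12). All CLP arrays were under it, so the CLP fold is a lower bound, at least 1.62-fold lower than CD127− LMPPs. Bcl2l11, which codes for the death-promoting protein BIM, was higher in CLPs than in CD127+ LMPPs (0.64, SE 0.13, adjusted p = 0.0192) and than in CD127− LMPPs (1.06, SE 0.13, adjusted p = 0.00054). The survival gene Bcl2, chosen after its values were seen, was at 9.15 ± 0.06 in CD127+ LMPPs and 9.55 ± 0.10 in CD127− LMPPs (SD, n = 3 each) and did not pass (adjusted p = 0.197). Of 16 genes of the PI3K and FoxO arm measured, Irs2, an adaptor for insulin and IL-4 receptors, was higher in CD127+ than in CD127− LMPPs (0.75, SE 0.15, adjusted p = 0.0333), and the lipid phosphatase gene Inpp5d was higher in CLPs than in CD127+ LMPPs (0.44, adjusted p = 0.0442). Against CD127− LMPPs, CLPs had more Irs2, Inpp5d and Foxo1, the last a transcription factor gene that acts on Il7r (0.57, SE 0.14, adjusted p = 0.0188), and less of the kinase gene Akt1 (−0.62, SE 0.14, adjusted p = 0.0143). Between Ly6D+ and Ly6D− CLPs, limma called 0 genes of these 5 lists, with 5 in all at an unadjusted p under 0.05.

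**Figure D4:**
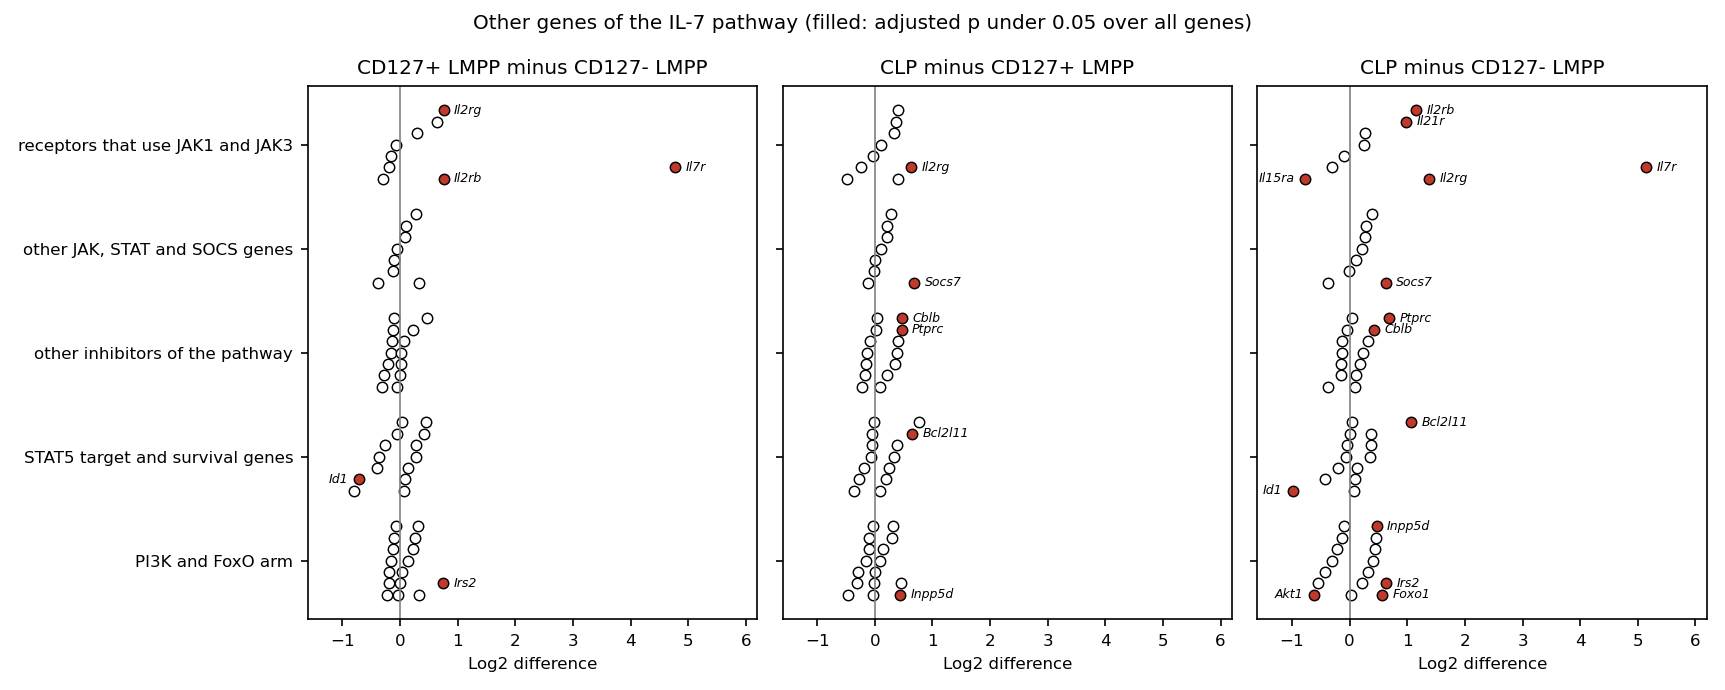
Log2 differences of single genes in 5 lists of the IL-7 pathway in 3 comparisons, with filled and named points for an adjusted p under 0.05 over all genes. Il7r, at 4.77 and 5.15, stands far to the right of the other genes in the first and the third panel, and the other filled points lie between −0.99 and 1.38.

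Other genes with the most similar pattern over the 10 arrays were sought among 11289 genes that were above the low-signal limit in some group. Cish was nearest to Cd33 (Pearson r = 0.971), which averaged 8.90 ± 0.12 in Ly6D+ CLPs and 9.04 ± 0.01 in Ly6D− CLPs (SD, n = 2 each), 8.70 ± 0.21 in CD127+ LMPPs and 7.55 ± 0.16 in CD127− LMPPs (SD, n = 3 each), followed by Clnk (0.960) and Epb4.1l4b (0.960). Socs2 was nearest to the RNA sensor gene Tlr7 (0.978), Arpp21 (0.964) and Ccdc88c (0.964). Socs3 was nearest to Ngp (0.934), a granule protein gene on the mature granulocyte list, which averaged 5.46 ± 0.04 in Ly6D+ CLPs, 4.82 ± 0.65 in Ly6D− CLPs, 6.72 ± 0.44 in CD127+ LMPPs and 4.18 ± 0.42 in CD127− LMPPs, with the same group sizes, and then to Tmem121 (0.913) and Rtp4 (0.912). Jak1 was nearest to Pip4k2a (0.977), Mll1 (0.975) and Rnase6 (0.972), Stat3 to Hmbox1 (0.974), Arih2 (0.972) and Sec24a (0.971), and Stat5b to Gpr160 (0.968), Tcp11l1 (0.963) and Hps3 (0.948). These are the highest of many coefficients over arrays that fall into 4 groups, and they describe the arrays without a test.

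**Figure D5:**
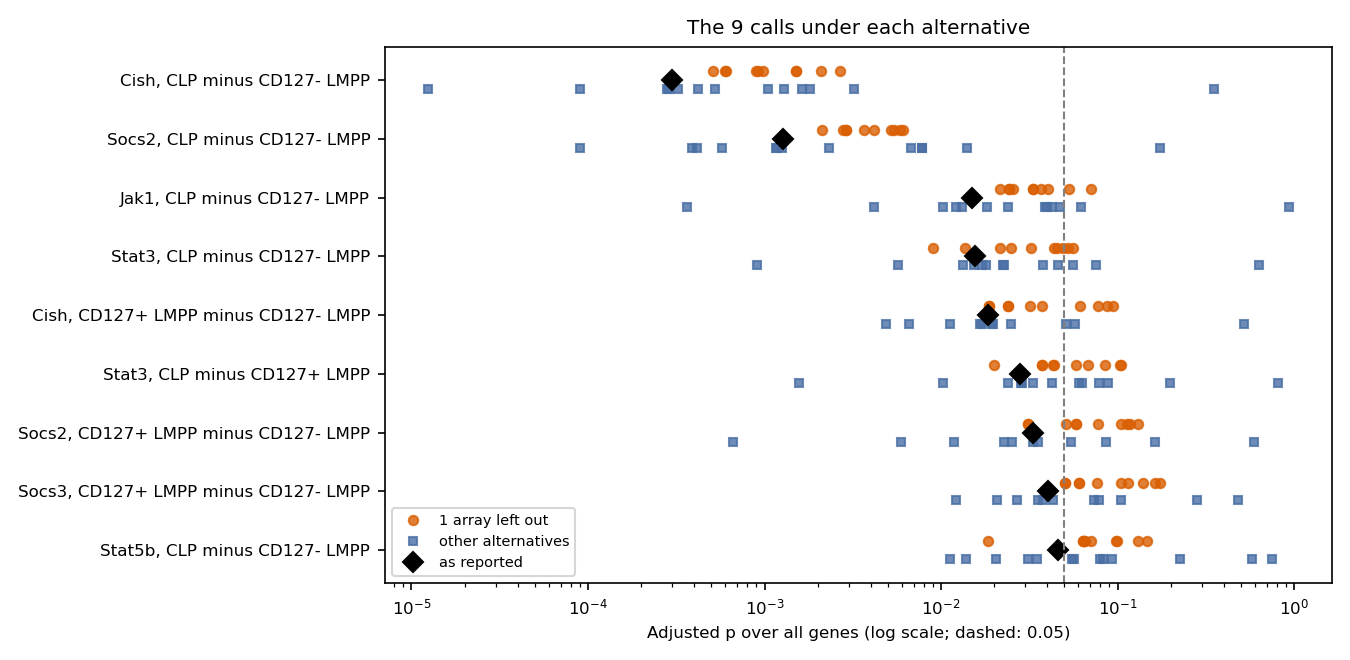
Adjusted p of each of the 9 calls (log axis, dashed line at 0.05) as reported (diamonds), with 1 array left out (circles) and under the other alternatives (squares). The circles of Cish and Socs2 in CLPs against CD127− LMPPs all lie below 0.05, and those of Socs3 in CD127+ against CD127− LMPPs all lie above it.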

How the data were processed

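The sorted progenitors' total RNA was labelled with biotin, per the labels' protocols. The authors deposited 1 log2 value per probe set and array. Affymetrix Power Tools is named in the submitters' processing notes. That the scale is log2 was read from the values' range of 0.20 to 14.79. No source used here gives the log base, how probes were summarised and normalized or the genome build. The array quartiles differed by 0.125 at most, so no further normalization was applied.

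Of 269751 probe sets, 233753 had 1 gene symbol and were averaged into 23152 genes. Differences came from limma 3.58.1 (R 4.3.3), fitted to all 10 arrays with 1 mean per group and the default eBayes, with the Benjamini-Hochberg correction across all genes. The steps were tested on simulated data. Promoter windows were searched in Python 3.11.15 with pandas 2.3.3, and figures used matplotlib 3.10.9 and numpy 2.4.6. A bound for a gene under the low-signal limit on all arrays of a group takes, per array, the higher of the limit and the gene's value. The number of arrays limits the precision.

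The 10 genes and the lists were chosen with earlier results of these data known. The rule named all 10 genes, up to 4 called genes per list and comparison, and the 3 genes most alike to each called one of the 10. Some genes of the lists were not analysed here. Alternatives were other probe set summaries, normalizations, filters, limma settings, each CLP group alone, a replicate block and each array left out. Chosen after seeing the data were the mean over probe sets above their own low-signal limit and, for a called gene, the mean without its most different probe set.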

Additional observations from a re-analysis of the deposited data

How the results depend on the processing

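No difference past the threshold changed sign under any alternative run, while 52 alternative values of uncalled differences changed sign and stayed uncalled. Of 201 alternative values of the 9 calls, 73 missed the threshold, and of 648 alternative values of the 31 uncalled differences, 3 passed it. The 3 were Jak1 in CLPs against CD127+ LMPPs with a filter on dim genes (adjusted p = 0.0494) and with limma's trend and robust settings (0.018), and Stat5a as given above. The 3 calls between CD127+ and CD127− LMPPs became 1 with the median of the probe sets, 1 with the brightest probe set, 1 in a fit of the compared arrays alone and 0 to 2 with 1 array left out. The 1 call between CLPs and CD127+ LMPPs became 0 with the median or the brightest probe set, 2 with the filter, 2 with trend and robust settings, 0 with the compared arrays alone, 0 with either CLP group alone and 0 to 1 with 1 array left out. The 5 calls between CLPs and CD127− LMPPs became 1 with the median or the brightest probe set, 3 with Ly6D− CLPs alone and 3 to 5 with 1 array left out. Quantile normalization, median centring and array weights left these counts within 1.5 times, but median centring and array weights each ended the Stat5b call (adjusted p = 0.0555 and 0.0567). The cause of the other changes was not tested.

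The replicate numbers were not used to pair the samples in the main fit, since same-numbered arrays shared little deviation from their group means. The deviations correlated at −0.011 to 0.038 between the LMPP groups and 0.028 between the CLP groups, where 2 arrays per group give a single value. Between LMPP and CLP groups, the differences of replicate 1 minus 2 correlated at −0.029 to 0.083. Such values cannot show whether same-numbered arrays came from the same mice or sort. With the replicate number as a block, limma called 0 of the 10 genes between CD127+ and CD127− LMPPs, 0 between CLPs and CD127+ LMPPs, 0 between the CLP groups and 5 between CLPs and CD127− LMPPs. Over all genes, the 341 calls between the LMPP groups became 160 and 88 with the median and the brightest probe set, 523 with the filter on dim genes and 581 with trend and robust settings, and were 165 to 340 with 1 array left out. The 1430 calls between CLPs and CD127+ LMPPs became 641 with the median, 2423 with the filter, 2415 with trend and robust settings, 872 with the compared arrays alone, 755 with the block, 933 with Ly6D+ CLPs and 476 with Ly6D− CLPs alone, and 586 to 1327 with 1 array left out. The 3111 calls between CLPs and CD127− LMPPs became 1822 with the median, 1643 with Ly6D− CLPs alone and 1763 to 2952 with 1 array left out. The 23 calls between the CLP groups ranged from 1, with the compared arrays alone, to 78, with trend and robust settings. Genes near the low-signal limit, Socs2 and Cish in CD127− LMPPs among them, have values there that background limits.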
